A study of Mus musculus with 72 samples.

Results

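The p53 target genes of growth arrest were followed in mouse liver and lung after whole body irradiation (WBI). They are *Cdkn1a*, *Ccng1*, *Btg2*, *Plk2*, *Plk3*, *Gtse1*, *Zmat3*, *Phlda3* and *Sesn2*. They were chosen by name, as known targets of the transcription factor p53 that act in growth arrest, with earlier results of these data known and with no threshold on a measured value. All 9 of the 9 genes had a probe among the 23787 named genes on the array. Female C57BL/6 J mice of 6 to 8 weeks of age received X-rays once, over the whole body at 1.05 Gy/min, at a surface dose between 1 and 12 Gy in the steps 1, 2, 4, 8 and 12 Gy. The control mice, given as 0 Gy, sat in the same kind of plastic container and were sham irradiated. Livers and lungs were collected 48 h after exposure, with 3 mice per dose, and each organ was hybridized to its own 1-colour Agilent mouse gene expression array, which gave 18 liver and 18 lung arrays. The labels name no transgene or deletion, and females of 1 inbred strain at 1 time point were all that was sampled. Slides also differ between the dose groups of a tissue: the 0 Gy livers lay on the first of 5 slides and the 12 Gy livers on the second and the third, and the 0 Gy lungs lay on the third and the 12 Gy lungs on the fifth, so dose and slide are in part tied. Mice are named here by the sample numbers of the labels, which run from 1 to 6, from 11 to 16 and from 21 to 26, with 1 mouse of each series at each dose.

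Ionizing radiation breaks DNA, and the kinases that sense the breaks stabilize p53, which then switches on genes that hold the cell cycle, repair DNA or kill the cell. The genes followed here belong to the first kind. *Cdkn1a* encodes p21, the inhibitor of cyclin-dependent kinases through which p53 stops cells before S phase. *Ccng1* encodes cyclin G1, which brings a protein phosphatase to Mdm2, the ligase that marks p53 for destruction. *Btg2* encodes an antiproliferative protein that recruits a deadenylase to messenger RNA, and *Gtse1* encodes a microtubule-binding protein made in the S and G2 phases that takes p53 out of the nucleus. *Plk2* and *Plk3* encode stress-responsive polo-like kinases. *Phlda3* encodes a small lipid-binding protein that competes with the survival kinase AKT for the membrane, *Sesn2* encodes sestrin 2, which holds back the growth kinase complex mTORC1, and *Zmat3* encodes a zinc finger protein that binds RNA. The liver of an adult mouse holds mostly resting hepatocytes, and the lung holds epithelium, much endothelium and many leukocytes, so few cells of either organ divide.

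Probes well above background made up 43.7% to 51.9% of a liver array and 52.0% to 62.3% of a lung array. The labelled tissues carried their defining genes. With the arrays of both tissues normalized together, the mean log2 signal of 15 hepatocyte genes lay between 17.58 and 17.70 in every liver. That of 12 lung epithelial genes lay between 15.59 and 15.98 in every lung and between 6.56 and 7.98 in the livers. A pair of lungs stood apart. The 4 Gy lung of mouse 24 had a hepatocyte level of 12.41, where the other lungs had 6.38 to 10.07, and the unirradiated lung of mouse 21 had a T cell level of 11.29, where the other unirradiated lungs had 9.22 and 9.64. Counts over the members are given below with and without these libraries. None of the spots of the 12 probes of the 9 genes was saturated. In bulk tissue a change in the number of cells of a type and a change in RNA per cell cannot be told apart.

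Promoter windows from RefSeq (build GRCm38.p6), which run from 250 bases before a start of transcription to 50 bases after it, were found for 8 of the 9 genes, 10 windows in all. A script searched both strands for the p53 half-site, the short motif to which a p53 dimer binds, with no mismatch. It was found in the windows of *Cdkn1a*, *Ccng1* and *Gtse1*, and at least 1 half-site stood in 2745 of 32851 such windows of the genome (8.36%). The first *Cdkn1a* window held 2 half-sites, GGACTAGCTT starting 73 bases before the start and GAACATGTCT starting 51 bases before it, and it was the only window of the 9 genes with 2 half-sites at most 13 bases apart, an arrangement found in 24 of the 32851 windows (0.0731%). The *Ccng1* window held GGGCAAGCCT 185 bases before the start, and the second *Gtse1* window held GGGCTTGCCT 10 bases after it. The motif TTTGAA, the core of the element through which arrested cells repress cell cycle genes, stood on either strand of 5878 windows (17.9%) and in no window of the 9 genes. These are matches of letters in a short window, and binding was not measured. The windows shown are 4, the 3 that hold a half-site, which is in capitals, and that of *Phlda3*, the member with the second largest change in liver, whose window held none. They lie at chr17:29090729-29091028 on the plus strand (*Cdkn1a*), chr11:40755237-40755536 on the minus strand (*Ccng1*), chr15:85859696-85859995 on the plus strand (*Gtse1*) and chr1:135765835-135766134 on the plus strand (*Phlda3*).
Cdkn1a: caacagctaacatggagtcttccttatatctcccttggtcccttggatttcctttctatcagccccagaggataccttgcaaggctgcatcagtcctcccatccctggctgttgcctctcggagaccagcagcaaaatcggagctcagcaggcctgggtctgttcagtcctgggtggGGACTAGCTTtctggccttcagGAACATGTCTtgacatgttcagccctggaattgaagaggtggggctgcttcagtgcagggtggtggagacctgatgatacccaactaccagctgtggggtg
Ccng1: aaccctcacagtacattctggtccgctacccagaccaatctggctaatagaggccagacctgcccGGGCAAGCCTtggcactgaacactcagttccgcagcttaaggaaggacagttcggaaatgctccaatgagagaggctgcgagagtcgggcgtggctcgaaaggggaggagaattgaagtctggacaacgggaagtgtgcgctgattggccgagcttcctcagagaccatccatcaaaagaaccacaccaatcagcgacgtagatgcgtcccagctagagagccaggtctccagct
Gtse1: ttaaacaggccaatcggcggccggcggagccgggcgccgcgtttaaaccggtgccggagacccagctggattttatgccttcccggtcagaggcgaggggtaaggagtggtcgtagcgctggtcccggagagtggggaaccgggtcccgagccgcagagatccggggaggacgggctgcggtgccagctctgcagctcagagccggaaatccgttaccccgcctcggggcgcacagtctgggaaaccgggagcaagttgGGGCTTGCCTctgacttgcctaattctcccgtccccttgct
Phlda3: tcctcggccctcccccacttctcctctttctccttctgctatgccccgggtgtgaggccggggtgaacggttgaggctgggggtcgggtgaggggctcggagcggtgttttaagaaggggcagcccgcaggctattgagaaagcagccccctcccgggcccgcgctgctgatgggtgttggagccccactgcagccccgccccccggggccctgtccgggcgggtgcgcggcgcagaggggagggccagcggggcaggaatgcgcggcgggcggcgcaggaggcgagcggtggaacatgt

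In liver, 6 of the 9 genes rose with dose and none fell. *Cdkn1a*, *Ccng1*, *Plk2*, *Plk3*, *Phlda3* and *Sesn2* passed the test of a linear dose trend (log2FC over 12 Gy above 1 and B-H adjusted p under 0.05), against 0.892% of the 38362 probes tested that were called higher and 1.13% that were called lower. *Btg2*, *Zmat3* and *Gtse1* did not pass. The median trend of the 9 genes was 1.58 over 12 Gy on the log2 scale, beside 0.00 for all probes tested. Against 0 Gy, 2 genes were called higher at 1 Gy (*Cdkn1a* and *Phlda3*), 3 at 2 Gy and 3 at 4 Gy (with *Ccng1*), 4 at 8 Gy (with *Plk3*) and 5 at 12 Gy (*Cdkn1a*, *Ccng1*, *Plk2*, *Phlda3* and *Sesn2*). Over all probes tested, 0.013%, 0.0808%, 0.321%, 0.839% and 0.73% were called higher at the 5 doses in rising order. All 5 of these comparisons share the same 3 control livers.

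**Figure D1:**
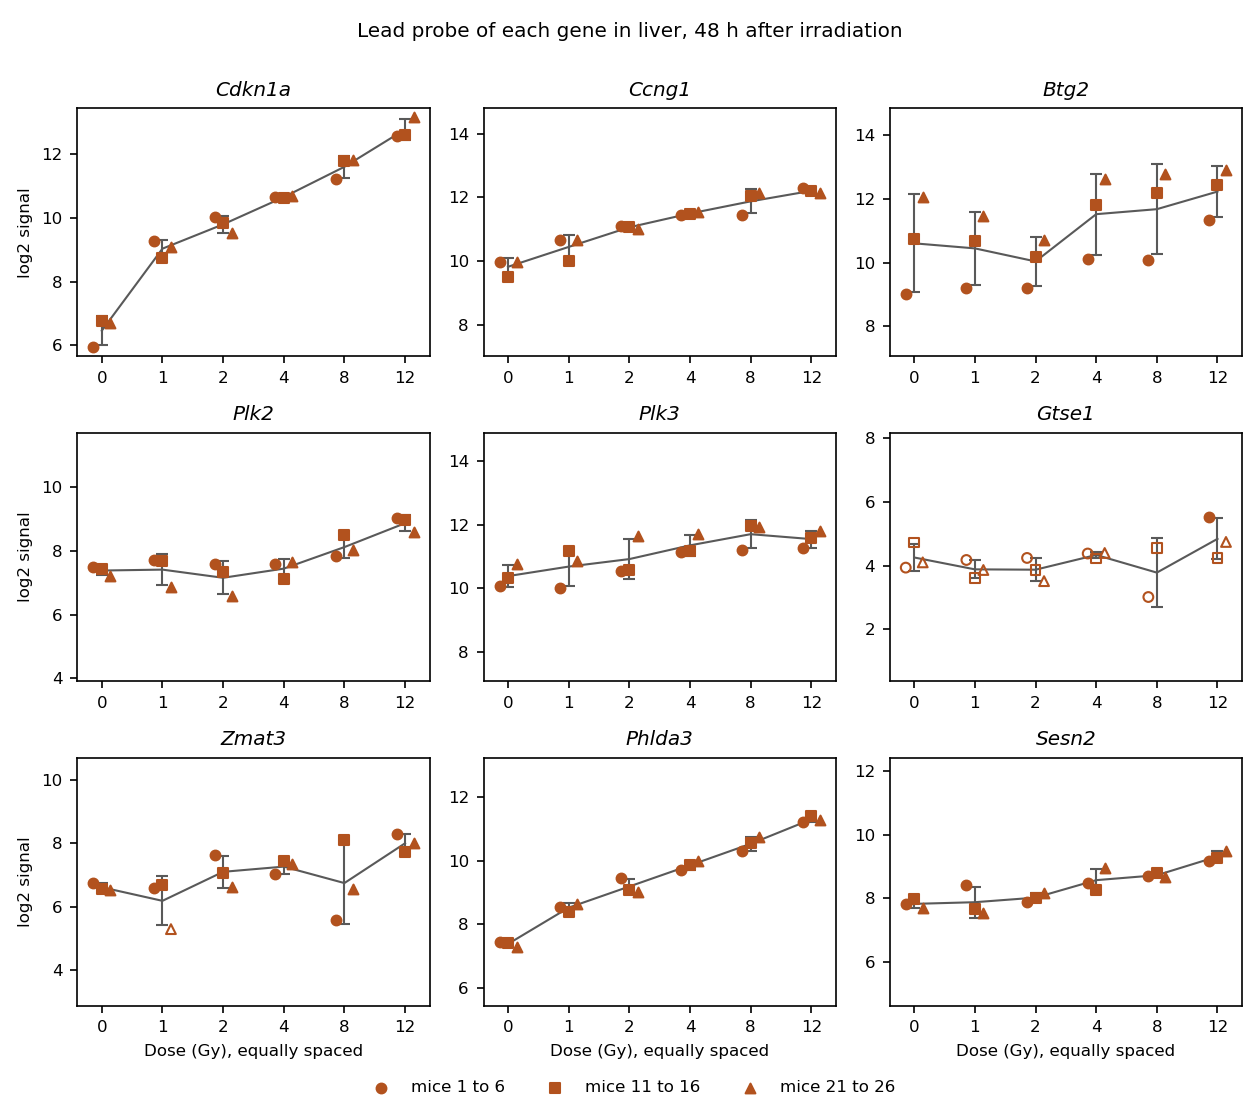
Normalized log2 signal (y axis, the same span in every panel) of the brightest probe of each of the 9 genes in each liver, against dose in Gy (x axis, doses equally spaced); points are mice, with circles for mice 1 to 6, squares for 11 to 16 and triangles for 21 to 26, open points are not well above background, and lines join means ± SD of 3 mice. *Cdkn1a* rose from between 5.93 and 6.75 at 0 Gy to between 12.57 and 13.17 at 12 Gy, while in *Btg2* the 3 mice of a dose lay far apart.

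*Cdkn1a* had the largest change of the 9 genes. Its log2 signal in the unirradiated livers was 5.93, 6.75 and 6.70 (mice 1, 11 and 21). At 1 Gy it was 9.28, 8.75 and 9.09, at 2 Gy 10.04, 9.83 and 9.53, and at 4 Gy 10.67, 10.62 and 10.68. At 8 Gy it was 11.22, 11.79 and 11.82, and at 12 Gy 12.57, 12.61 and 13.17. The lowest irradiated liver thus stood 2.00 above the highest control, and no 2 neighbouring dose groups overlapped. The log2FC was 2.58 at 1 Gy (SE 0.24, adjusted p = 0.000741), a 5.97-fold rise, and 6.33 at 12 Gy (SE 0.24, adjusted p = 2.32e-09), an 80.2-fold rise. Its size at 12 Gy depended on the processing, with a log2FC of 5.67 to 6.73 under 10 alternatives and a call in all 10. At 2, 4 and 8 Gy the rises were 10.1-fold, 18.4-fold and 35.5-fold. The linear trend was 5.13 over 12 Gy (SE 0.60, adjusted p = 2.84e-05).

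*Ccng1*, whose product feeds back on p53, rose in the same order but less. The log2 signal was 9.98, 9.51 and 9.97 in the unirradiated livers, 10.65, 10.01 and 10.68 at 1 Gy, 11.12, 11.08 and 11.00 at 2 Gy and 11.46, 11.47 and 11.56 at 4 Gy. It was 11.45, 12.05 and 12.14 at 8 Gy and 12.31, 12.19 and 12.13 at 12 Gy. All irradiated livers lay above all controls, at 1 Gy by 0.03 only. The log2FC of 0.62 at 1 Gy did not pass (SE 0.20, adjusted p = 0.534), and it was 1.24 at 2 Gy (adjusted p = 0.012) and 2.39 at 12 Gy (SE 0.20, adjusted p = 6.16e-06), a rise of 5.23-fold. Without control mouse 11 or 2 Gy mouse 13 the 2 Gy call was lost (adjusted p = 0.0829 and 0.0567).

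*Btg2* varied more between mice of a dose than between doses. Its log2 signal was 9.01, 10.74 and 12.07 in the unirradiated livers, 9.21, 10.69 and 11.46 at 1 Gy and 9.22, 10.18 and 10.72 at 2 Gy. It was 10.13, 11.82 and 12.63 at 4 Gy, 10.08, 12.18 and 12.79 at 8 Gy, and 11.35, 12.46 and 12.90 at 12 Gy. Every dose group overlapped the controls. At all 6 doses the mouse of the series 1 to 6 was the lowest and that of the series 21 to 26 the highest, with mean deviations from the dose mean of -1.26, 0.26 and 1.00 for the series in order. The labels do not say what the series stand for. Without a term for them, the log2FC at 12 Gy was 1.63 (SE 0.89, adjusted p = 0.334) and the trend 1.95 (SE 0.68, adjusted p = 0.0797), and neither passed. With the series as a block, an alternative chosen after seeing the data, *Btg2* was called at 8 Gy (1.07, adjusted p = 0.0256), at 12 Gy (1.63, adjusted p = 0.00293) and by its trend (1.95, adjusted p = 0.000911). The 12 Gy log2FC without the block ran from 0.83 without control mouse 1 to 2.36 without control mouse 21. The trend passed with liver and lung normalized and fitted together (1.76, adjusted p = 0.0163), and without control mouse 21 (2.28, adjusted p = 0.042) or 8 Gy mouse 5 (2.18, adjusted p = 0.0468). The second probe of *Btg2* gave a trend of 2.11 (adjusted p = 0.0785).

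*Gtse1*, the member that is itself made in dividing cells, was barely detected. A signal well above background was seen on 2 of 18 livers, 1 at 8 Gy and 1 at 12 Gy, and on 1 of 18 lungs, at 4 Gy. The spot of that 8 Gy liver was marked as an outlier and left out, and the log2 signal lay between 3.02 and 5.53 in the other livers. No fold can be given where both groups are near background, and neither trend passed (adjusted p = 0.278 in liver and 0.724 in lung).

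Of the polo-like kinase genes, *Plk2* was called in liver at 12 Gy only. It had a log2 signal of 7.50, 7.43 and 7.23 in the unirradiated livers and stayed between 6.57 and 7.70 at 1, 2 and 4 Gy. It was 7.85, 8.50 and 8.02 at 8 Gy and 9.05, 8.98 and 8.59 at 12 Gy. The groups at 1, 2 and 4 Gy overlapped the controls, and those at 8 and 12 Gy lay above them. Only the 12 Gy comparison passed, with a log2FC of 1.49 (SE 0.28, adjusted p = 0.00475), a 2.80-fold rise, and the trend was 1.58 (adjusted p = 0.000341). *Plk3* had 10.06, 10.32 and 10.76 in the unirradiated livers, 10.003, 11.17 and 10.87 at 1 Gy, 10.54, 10.59 and 11.63 at 2 Gy and 11.15, 11.18 and 11.72 at 4 Gy. It had 11.20, 11.96 and 11.94 at 8 Gy and 11.26, 11.59 and 11.79 at 12 Gy. Its 1 and 2 Gy livers overlapped the controls, and its 4, 8 and 12 Gy livers lay above them. The 8 Gy comparison passed (log2FC 1.32, SE 0.34, adjusted p = 0.0271), the 12 Gy comparison did not (1.16, adjusted p = 0.0562), and the trend did (1.17, adjusted p = 0.015). The 8 Gy call of *Plk3* was lost without control mouse 1 or 11 or 8 Gy mouse 15 or 25 (adjusted p = 0.0992, 0.0844, 0.0893 and 0.0689), and the 12 Gy comparison passed without 1 Gy mouse 2, 2 Gy mouse 23 or 8 Gy mouse 5 (adjusted p = 0.0335, 0.0315 and 0.0486) and with the number series as a block (1.16, adjusted p = 0.00781). With the slide as a random block, neither its 8 Gy comparison (1.24, adjusted p = 0.0681) nor its trend (1.04, adjusted p = 0.0515) passed (limma).

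*Phlda3*, the AKT antagonist, was the gene nearest to *Cdkn1a* in liver. Its log2 signal was 7.46, 7.41 and 7.28 in the unirradiated livers, 8.56, 8.38 and 8.64 at 1 Gy, 9.47, 9.08 and 9.02 at 2 Gy and 9.71, 9.85 and 10.004 at 4 Gy. It was 10.29, 10.56 and 10.73 at 8 Gy and 11.23, 11.40 and 11.28 at 12 Gy. No 2 dose groups overlapped. The log2FC was 1.14 at 1 Gy (SE 0.14, adjusted p = 0.0102) and 3.92 at 12 Gy (SE 0.14, adjusted p = 2.32e-09), a 15.1-fold rise. The 1 Gy call was lost without control mouse 11 or 21 or 1 Gy mouse 22 (adjusted p = 0.0789, 0.0768 and 0.0628). The trend was 3.42 over 12 Gy (SE 0.31, adjusted p = 3.09e-06).

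*Sesn2*, the brake on mTORC1, had a mean that rose at each step of dose in liver. In the order of the mice, its log2 signal was 7.81, 7.98 and 7.70 in the unirradiated livers, 8.44, 7.66 and 7.55 at 1 Gy and 7.89, 8.01 and 8.18 at 2 Gy. It was 8.49, 8.27 and 8.96 at 4 Gy, 8.70, 8.81 and 8.68 at 8 Gy and 9.18, 9.28 and 9.50 at 12 Gy. The livers overlapped the controls at 1 and 2 Gy and lay above them from 4 Gy on. The log2FC of 0.90 at 8 Gy had an adjusted p of 0.0168 but was under the fold threshold, and that of 1.49 at 12 Gy was called (SE 0.21, adjusted p = 0.00074). *Zmat3* gave 6.76, 6.55 and 6.54 in the unirradiated livers, 5.58, 8.11 and 6.55 at 8 Gy and 8.28, 7.71 and 8.00 at 12 Gy. The 12 Gy livers lay above the controls and the 8 Gy livers lay on both sides of them. Neither the 12 Gy comparison (log2FC 1.38, SE 0.50, adjusted p = 0.116) nor the trend (1.20, adjusted p = 0.0925) passed with all 18 livers. On the scanner software's processed signal and on the series values the trend was called (1.5 in both, adjusted p = 0.0347 and 0.0389). Without 8 Gy mouse 15 the 12 Gy comparison passed (1.39, adjusted p = 0.0319), and without 8 Gy mouse 5 the trend did (1.46, adjusted p = 0.0126).

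In lung, 5 of the 9 genes rose with dose and none fell. *Cdkn1a*, *Ccng1*, *Plk3*, *Phlda3* and *Sesn2* passed the test of the trend, beside 2.7% of the 43979 probes tested that were called higher and 4.31% that were called lower, and the median trend was 1.00 for the 9 genes and 0.08 for all probes. Against 0 Gy, the count of genes called higher was 1 at 1 Gy (*Cdkn1a*), 2 at 2 Gy (with *Zmat3*), 4 at 4 Gy (with *Ccng1* and *Sesn2*), and 5 at 8 Gy and 5 at 12 Gy (with *Phlda3*). Over all probes tested, 0.0114%, 0.0705%, 0.246%, 0.528% and 3.02% were called higher at these doses. Over the 45 comparisons of a gene and a dose, 17 were called in lung with all arrays, 15 without the unirradiated lung of mouse 21 and 16 without the 4 Gy lung of mouse 24, and the trend was called for 4 and 5 genes without them.

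**Figure D2:**
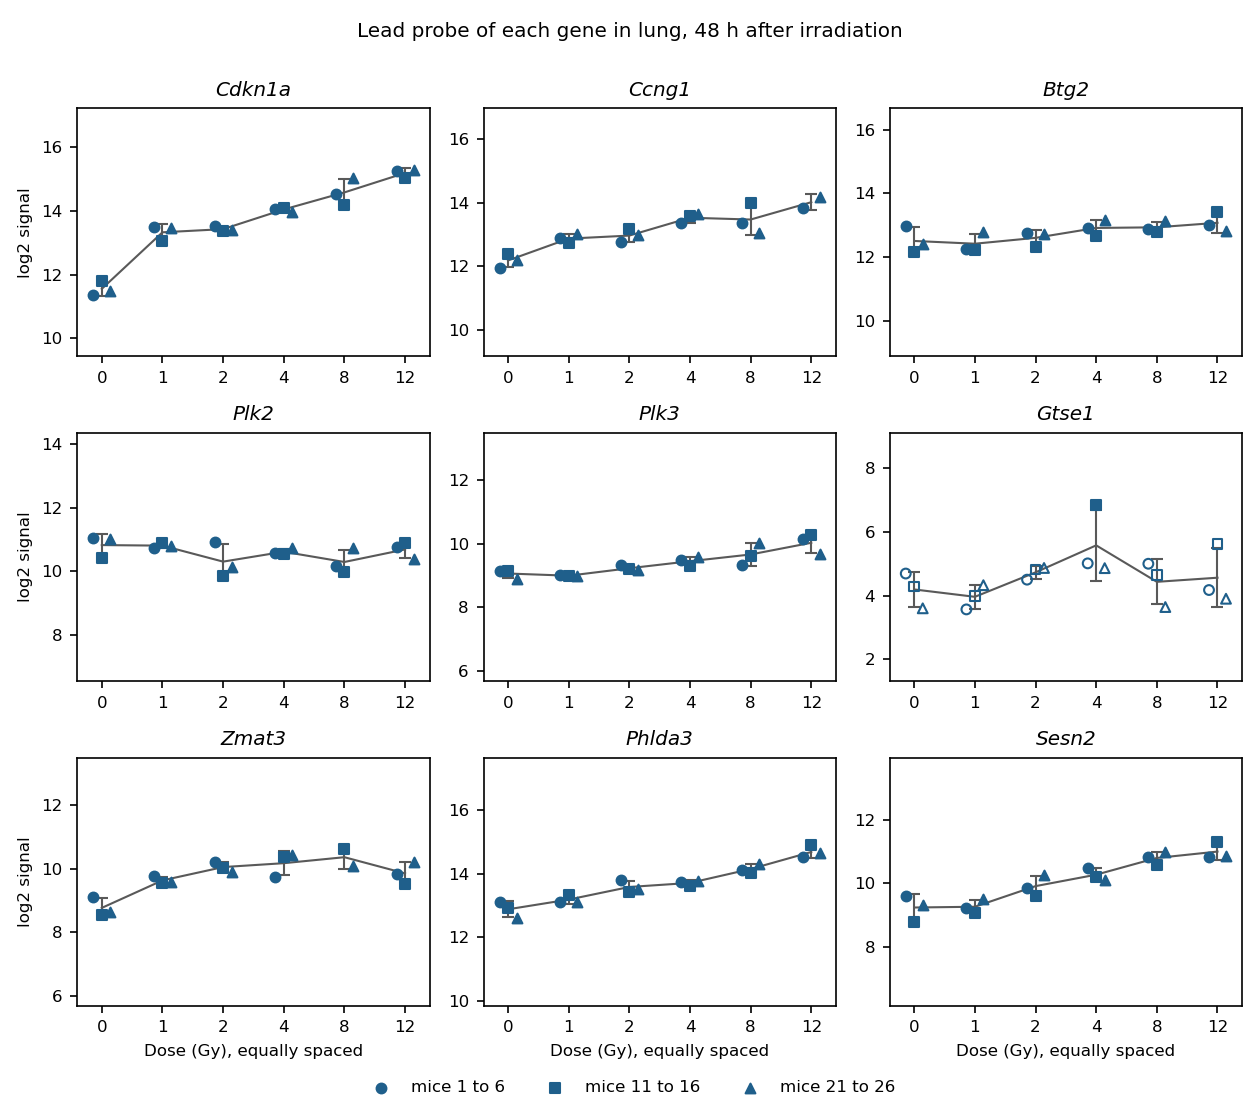
Normalized log2 signal (y axis, the same span in every panel) of the brightest probe of each of the 9 genes in each lung, against dose in Gy (x axis, doses equally spaced), with the same markers as for the livers and lines that join means ± SD; open points are not well above background. *Cdkn1a* started at 11.37 to 11.79 and reached 15.03 to 15.29, *Plk2* stayed between 9.84 and 11.05, and *Zmat3* was highest at 8 Gy.

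*Cdkn1a* was again the gene with the largest rise. Its log2 signal was 11.37, 11.79 and 11.49 in the unirradiated lungs, 13.49, 13.04 and 13.45 at 1 Gy, 13.51, 13.36 and 13.41 at 2 Gy and 14.06, 14.10 and 13.98 at 4 Gy. It was 14.53, 14.18 and 15.04 at 8 Gy and 15.26, 15.03 and 15.29 at 12 Gy. Every irradiated lung lay at least 1.25 above every control, whereas the 1 and 2 Gy lungs overlapped each other, as did the 8 and 12 Gy lungs. The log2FC was 1.78 at 1 Gy (SE 0.20, adjusted p = 0.00222), a 3.43-fold rise, and 3.64 at 12 Gy (SE 0.20, adjusted p = 1.93e-08), a 12.5-fold rise. The trend was 2.88 over 12 Gy (SE 0.38, adjusted p = 3.14e-05).

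*Ccng1* gave 11.95, 12.39 and 12.21 in the unirradiated lungs, 13.35, 13.58 and 13.65 at 4 Gy, and 13.84 and 14.19 in the 2 lungs with a value at 12 Gy, since the spot of mouse 16 was marked as an outlier. All irradiated lungs lay above all controls. The comparison passed at 4 Gy (log2FC 1.34, adjusted p = 0.0033), 8 Gy (1.29, adjusted p = 0.00249) and 12 Gy (1.83, adjusted p = 0.00023), and the trend was 1.5 (adjusted p = 0.000422). *Btg2* lay between 12.14 and 13.41 in all 18 lungs, and its trend of 0.63 (SE 0.18, adjusted p = 0.0153) was under the fold threshold, as was that of its second probe (0.63, adjusted p = 0.0258). The lungs overlapped the controls at every dose by the brighter probe, and by the second probe they lay above the controls from 2 Gy on.

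*Plk2* did not pass the test at any dose in lung. The signal was 11.05, 10.41 and 11.00 in the unirradiated lungs, 10.92, 9.84 and 10.15 at 2 Gy and 10.77, 10.90 and 10.39 at 12 Gy. All dose groups overlapped the controls, and the trend was -0.16 (adjusted p = 0.644). *Plk3* gave 9.14, 9.15 and 8.90 in the unirradiated lungs and 10.14, 10.27 and 9.68 at 12 Gy, with no overlap between these groups. The 12 Gy log2FC of 0.97 (SE 0.18, adjusted p = 0.00223) was just under the fold threshold and passed it without control mouse 1, control mouse 11 or 12 Gy mouse 26 (1.13 at most). The *Plk3* trend of 1.00 over 12 Gy (SE 0.14, adjusted p = 5.71e-05) stood just over the threshold and was lost without any 1 of 9 single lungs, with values of 0.91 to 1.00, at adjusted p of 0.000461 or less.

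*Phlda3* gave 13.11, 12.93 and 12.60 in the unirradiated lungs, 14.11, 14.02 and 14.31 at 8 Gy and 14.51, 14.89 and 14.64 at 12 Gy. The lungs lay above the controls at every dose, at 1 Gy by only 0.002. It was called at 8 Gy (log2FC 1.27, SE 0.16, adjusted p = 0.000169) and 12 Gy (1.80, SE 0.16, adjusted p = 3.98e-06), a 3.49-fold rise, with a trend of 1.64 (adjusted p = 4.48e-07). *Sesn2* gave 9.62, 8.79 and 9.32 in the unirradiated lungs, 10.82, 10.59 and 10.99 at 8 Gy and 10.83, 11.32 and 10.86 at 12 Gy. The lungs overlapped the controls at 1 and 2 Gy and lay above them from 4 Gy on. *Sesn2* was called at 4, 8 and 12 Gy (log2FC 1.03, 1.56 and 1.76, adjusted p = 0.0261, 0.000593 and 0.000142), with a trend of 1.83 (SE 0.22, adjusted p = 1.36e-05). The 4 Gy call was lost without control mouse 11 or 21 or without any of the 3 lungs at 4 Gy (log2FC 0.81 to 1.11, adjusted p = 0.0537 to 0.106).

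*Zmat3* was called in lung at 4 of 5 doses. It had a log2 signal of 9.12, 8.55 and 8.65 in the unirradiated lungs, 9.76, 9.56 and 9.59 at 1 Gy, 10.21, 10.04 and 9.91 at 2 Gy and 9.74, 10.37 and 10.42 at 4 Gy. It was 10.64 and 10.09 in the 2 lungs with a value at 8 Gy (the spot of mouse 5 was marked as an outlier) and 9.83, 9.53 and 10.22 at 12 Gy. All irradiated lungs lay above all controls. The log2FC was 0.86 at 1 Gy (adjusted p = 0.379), 1.28 at 2 Gy (0.0195), 1.41 at 4 Gy (0.00369), 1.59 at 8 Gy (0.0018) and 1.08 at 12 Gy (0.00539), so that the 12 Gy mean lay below the 8 Gy mean by 0.51, a difference that did not pass (adjusted p = 0.294). The linear trend was 0.71 (SE 0.34, adjusted p = 0.125). The 2 Gy call was lost without control mouse 11 or 21 or without any of the 3 lungs at 2 Gy (adjusted p = 0.0696 to 0.106), and the 12 Gy call fell under the fold threshold without control mouse 11 (0.98) or 12 Gy mouse 26 (0.90). Of 10 alternatives, 5 lost the 2 Gy call, 3 the 4 Gy call and 2 the 12 Gy call, and the 8 Gy call stayed in all 10. With the slide as a random block the adjusted p was 0.419 at 2 Gy, 0.0929 at 4 Gy and 0.0548 at 12 Gy (limma).

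The path from 0 to 12 Gy differed in shape between the genes. As a share of the 12 Gy log2FC, *Cdkn1a* had reached 40.8% in liver and 48.8% in lung at 1 Gy and 81.4% and 83.2% at 8 Gy. *Phlda3* had reached 29.1% and 17.0% at 1 Gy. *Sesn2* had reached 3.5% and 1.36% at 1 Gy and 50.1% and 58.7% at 4 Gy, and *Plk2* in liver 1.93% at 1 Gy and 4.03% at 4 Gy. These shares are descriptions, and the differences between them were not tested. The group means rose at each step from 0 to 12 Gy for *Cdkn1a*, *Phlda3* and *Sesn2* in both tissues and for *Ccng1* in liver. The step from 0 to 1 Gy was called for *Cdkn1a* in both tissues and for *Phlda3* in liver. Above 1 Gy no single step passed on its own: of the 36 comparisons of a gene between neighbouring doses (2 with 1, 4 with 2, 8 with 4 and 12 with 8 Gy) in each tissue, 0 were called. Over all probes the same steps had 0%, 0%, 0.00521% and 0% called in liver and 0.00227%, 0%, 0.0091% and 0.184% in lung.

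**Figure D3:**
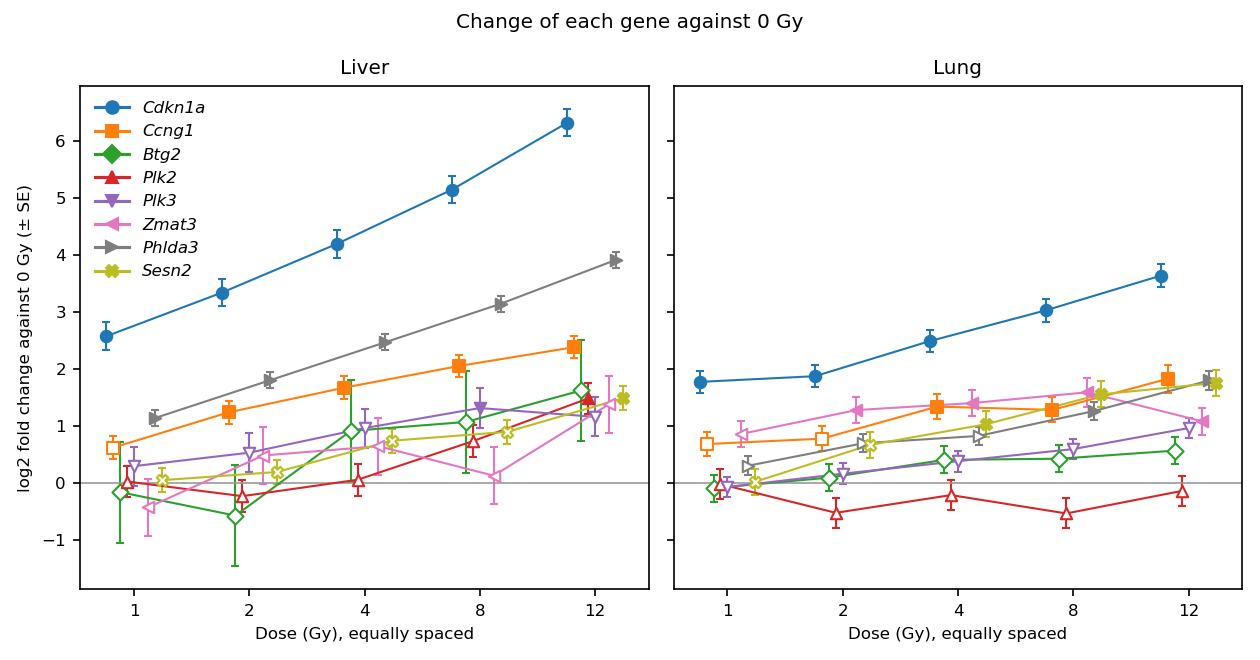
Log2FC against 0 Gy (y axis) at each dose (x axis, in Gy, doses equally spaced) for 8 of the 9 genes in liver and lung, with bars for ± 1 SE of the limma fit and filled points for calls; *Gtse1*, near background, is left out. *Cdkn1a* was called at every dose in both tissues, and *Plk2* was called in liver at 12 Gy only.

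Most genes had 1 probe, *Btg2* had 2 and *Cdkn1a* had 3, and the *Cdkn1a* probes did not have the same size of change. In liver a second *Cdkn1a* probe was not well above background in the 3 controls and rose at least 3.86-fold at 4 Gy (adjusted p = 0.000224) and at least 3.57-fold at 12 Gy (adjusted p = 0.000125). At 1 Gy it lay at least 2.36-fold higher but did not pass (adjusted p = 0.0503). A bound of this kind sets the mean of the irradiated livers against the lowest level that counts as measured. The third probe, which names the gene by an Ensembl transcript, was well above background on 1 of 18 livers. In lung the second probe had a log2FC of 3.83 at 12 Gy (adjusted p = 8.42e-08), and the third rose at least 5.05-fold (adjusted p = 6.63e-05). All 3 probes of *Cdkn1a* thus rose in lung. In liver the folds of the 2 dim ones against 0 Gy are lower limits. The second probe was well above background in every liver at 4, 8 and 12 Gy, with mean log2 signals of 6.46, 6.18 and 6.35. It thus did not share the rise of the brightest probe from 10.66 at 4 Gy to 12.79 at 12 Gy. The liver trends of the dim probes were 0.90, under the fold threshold, and 1.23, beside 5.13 for the brightest.

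The test of the tissue difference asked whether the dose trend itself was larger in one organ. Over all 47376 probes tested on the 36 arrays together, 7.19% differed in either direction, and 2 of the 9 genes did, *Plk2* and *Phlda3*. The trend of *Plk2* was lower in lung than in liver by 1.66 over 12 Gy (lung minus liver -1.66, SE 0.35, adjusted p = 0.00141). That of *Phlda3* was lower by 1.34 (lung minus liver -1.34, SE 0.34, adjusted p = 0.00687), with a rise in both organs. For *Cdkn1a* the difference was of the same size and less certain (-1.64, SE 0.75, adjusted p = 0.133), and it passed on the scanner software's processed signal, with scaling to the 75th percentile and on the series values (-2.29, -2.21 and -2.33, adjusted p = 0.0459, 0.0335 and 0.0415). It also passed with the mouse number as a block (-1.64, adjusted p = 0.000367), though the labels do not say whether a liver and a lung of the same number came from 1 mouse. The 2 dimmer probes of *Cdkn1a* were near background in the unirradiated livers, so no difference between the trends is given for them. The lung trend of *Sesn2* was higher by 0.61 (SE 0.30, adjusted p = 0.157). For *Plk3* and *Ccng1* the differences were 0.02 (SE 0.31) and -0.17 (SE 0.39), for *Zmat3* -0.41 (SE 0.60) and for *Btg2* -1.03 (SE 0.67), none of which passed. For *Zmat3*, called against 0 Gy in lung and not in liver, the test of the trend difference thus did not pass.

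**Figure D4:**
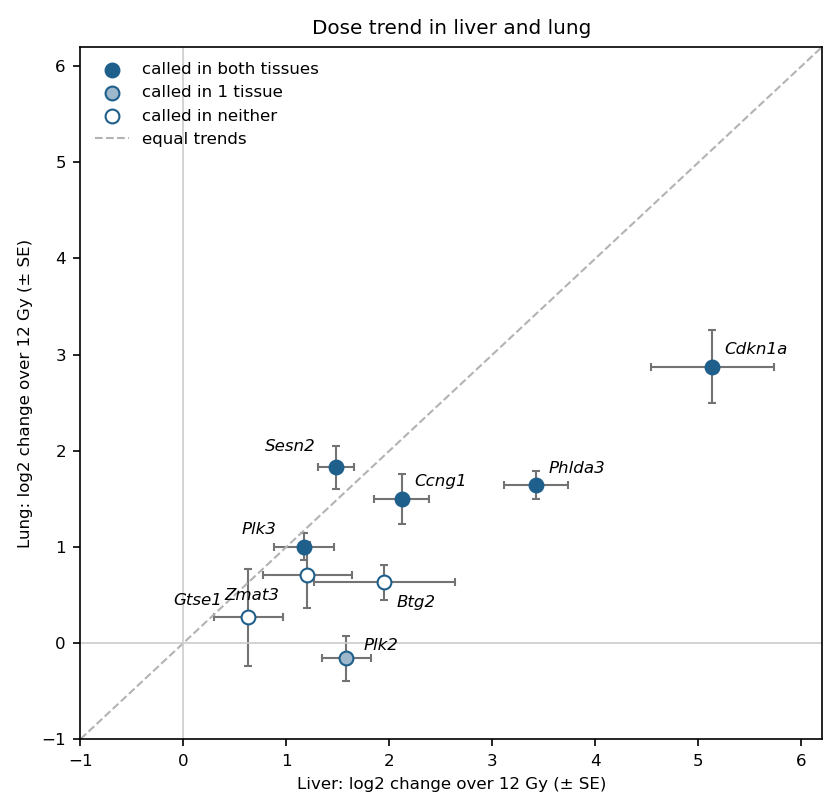
Dose trend in liver (x axis) against that in lung (y axis), both as log2 change over 12 Gy with bars for ± 1 SE, for the 9 genes, each tissue fitted on its own and points filled by the tissues in which the trend was called; the line marks equal trends. *Cdkn1a* (5.13 and 2.88), *Phlda3* (3.42 and 1.64) and *Plk2* (1.58 and -0.16) lie below the line, and *Sesn2* (1.48 and 1.83) lies above it.

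Before irradiation the organs already differed in 5 of the 9 genes, beside 34.8% of all probes. With the arrays of both organs normalized together, *Phlda3* was 12.84, 12.62 and 12.24 in the unirradiated lungs and 8.16, 8.12 and 8.00 in the unirradiated livers, a 22.2-fold difference (log2FC 4.47, SE 0.15, adjusted p = 9.16e-20). *Cdkn1a* was 10.87, 11.34 and 11.00 in lung and 6.62, 7.48 and 7.42 in liver (log2FC 3.9, SE 0.22, adjusted p = 4.8e-15). The values of the organs did not overlap in either case. *Plk2* (log2FC 2.17, adjusted p = 1.7e-07) and *Ccng1* (1.41, adjusted p = 4.03e-06) were higher in lung as well, and *Ccng1* fell under the fold threshold in 2 of 7 alternatives (lowest 0.84). *Plk3* was the exception, with 8.45, 8.46 and 8.19 in lung and 10.59, 10.83 and 11.23 in liver (log2FC -2.51, SE 0.27, adjusted p = 3.37e-09). *Sesn2* did not pass (0.04, SE 0.23, adjusted p = 0.907), nor did *Zmat3* (0.72, SE 0.42) or *Btg2* (1.06, SE 0.62). *Btg2* passed without mouse 21 (1.79, adjusted p = 0.0415).

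The pathway around these genes was described with lists of genes by their dose trend, 1 probe per gene. By the same trend, 0.892% of all probes tested were called higher and 1.13% lower in liver, and 2.7% and 4.31% in lung. Of 25 other p53 targets, which act in apoptosis, DNA repair and feedback on p53, 10 were called higher and 0 lower in liver (median log2 change 0.42 over 12 Gy, against 0.00 for all probes) and 14 higher and 1 lower in lung (median 1.1, against 0.08). The largest rises in liver were in *Eda2r* (2.96, adjusted p = 0.000238) and *Tnfrsf10b* (2.40, adjusted p = 2.49e-05), receptors of the tumour necrosis factor family, and *Trp53inp1* (2.34, adjusted p = 6.65e-06). In lung they were in *Gdf15* (3.96, adjusted p = 5.88e-06), a secreted stress cytokine, *Eda2r* (3.51, adjusted p = 0.000196) and *Psrc1* (2.69, adjusted p = 5.31e-06). The single call lower was *Tap1*, which carries peptides for antigen presentation (-1.43, adjusted p = 0.000524). The mean log2 level of the list went from between 9.44 and 9.62 in the unirradiated livers to between 10.43 and 10.58 at 12 Gy, and from between 9.91 and 9.98 to between 11.34 and 11.48 in lung.

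Of 20 genes of proliferating cells, 5 fell in liver and 6 in lung and 0 rose. Over all probes tested, 1.13% were called lower in liver and 4.31% in lung. *Top2a*, the topoisomerase of S phase and mitosis (-2.37, adjusted p = 0.00246), *Mki67*, the proliferation antigen (-2.27, adjusted p = 0.0105), and *Cdc20*, an activator of the anaphase-promoting complex (-2.19, adjusted p = 0.039), fell most in liver. *Mki67* (-2.68, adjusted p = 0.00115), *Nusap1*, a spindle protein (-1.99, adjusted p = 0.00203), and *Birc5*, which encodes survivin (-1.86, adjusted p = 0.0158), fell most in lung. The mean log2 level of this list lay between 7.01 and 8.28 in the unirradiated livers, between 6.11 and 6.75 at 1 Gy and between 5.80 and 5.96 at 12 Gy, so the 1 Gy livers already lay below the controls. In lung it lay between 7.35 and 8.76 at 0 Gy, between 6.75 and 7.08 at 1 Gy and between 6.24 and 6.75 at 12 Gy. Of the 20 genes, 18 were well above background in all livers at 0 Gy and 6 in all livers at 12 Gy. In lung these counts were 20 and 15. Background thus limits the size of the falls, above all in liver. Of 23 partners and relatives of the 9 genes, such as the cyclins and kinases that p21 inhibits, sestrin and Btg paralogs and p53 itself, 22 were tested in liver and 23 in lung, and 0 were called in either direction in either tissue by limma, with medians of -0.10 and -0.03.

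**Figure D5:**
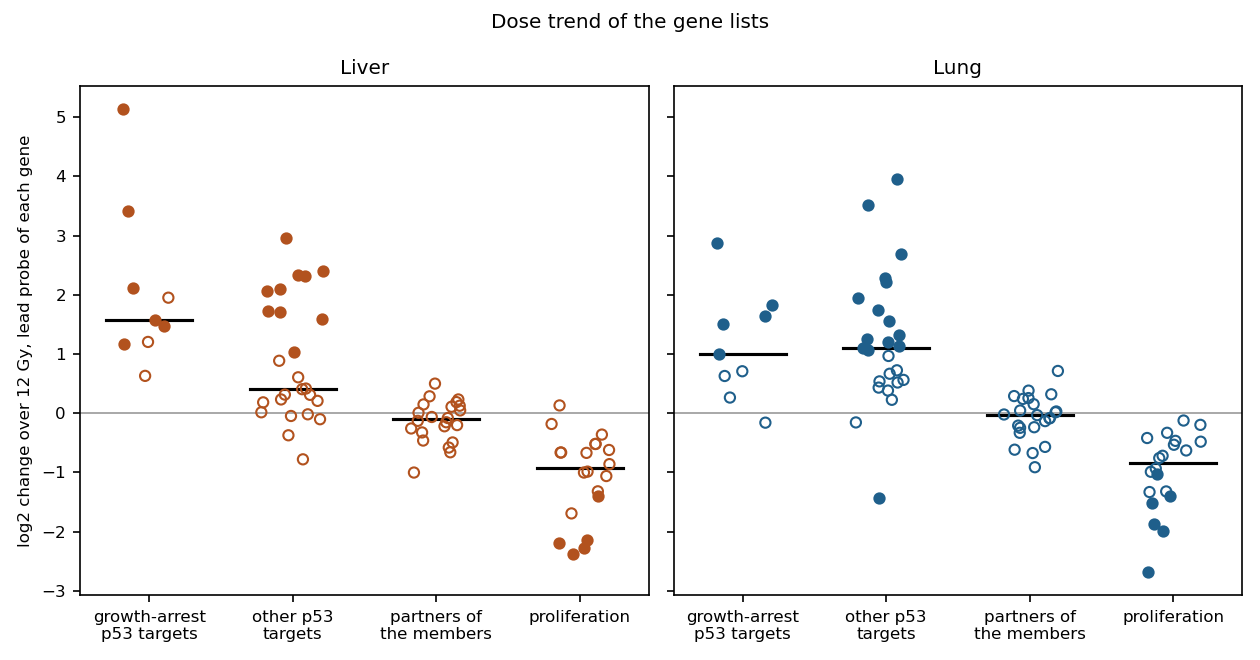
Dose trend (log2 change over 12 Gy) of the 9 genes (left) and of each gene of the lists in liver and lung, with 1 point per gene, filled where called, and a bar at the median of each list. The 9 genes have medians of 1.58 and 1.00, the other p53 targets 0.42 and 1.1, the proliferation genes -0.92 and -0.84 and the partners -0.10 and -0.03.

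Markers of blood cells moved with dose in the same libraries. The counts below stand beside 0.892% of all probes called higher and 1.13% called lower in liver, and 2.7% and 4.31% in lung. Of the B cell markers, 7 of 13 tested fell in liver (*Ms4a1* by 3.48 on the log2 scale) and 12 of 14 fell in lung (*Ms4a1* by 5.99). Their mean log2 level went from between 6.79 and 7.17 to between 5.30 and 5.51 in liver and from between 8.97 and 9.94 to between 6.14 and 6.28 in lung. Of the 14 with a probe, 10 were well above background in all livers at 0 Gy and 5 at 12 Gy. In lung these counts were 14 and 5, so background limits the size of these falls too. Of the T cell markers, 5 of 12 fell in liver and 11 of 13 in lung, where their level went from between 9.22 and 11.29 to between 6.80 and 7.23. Of the erythroid markers, a list without globin genes, 0 of 10 were called in liver and 3 of 11 fell in lung, and of the neutrophil markers 1 rose and 1 fell of 13 in liver, and 1 rose and 3 fell of 14 in lung. No hepatocyte marker was called in liver (0 of 15), where their level stayed between 17.61 and 17.64 at 0 Gy and between 17.60 and 17.68 at 12 Gy. Of 9 endothelial markers 1 fell in liver, *Tek* (-1.07, adjusted p = 0.000195), and 0 were called in lung. Of the lung epithelial markers 0 of 10 were called in liver and 1 of 12 fell in lung, *Sftpb* (-1.19, adjusted p = 0.00711), and *Tat* was the 1 of 15 hepatocyte markers called in lung (2.63, adjusted p = 0.00033). The part of these shifts in the results of the 9 genes was not tested.

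The 5 slides, of up to 8 arrays each, held more than 1 dose of a tissue, so changes could be read within a slide. On the first slide, with livers of 0, 1 and 2 Gy, *Cdkn1a* was higher at 2 than at 0 Gy by 3.48, *Phlda3* by 1.89 and *Ccng1* by 1.27. On the second, *Cdkn1a* was higher in the 1 liver at 12 Gy than in the 1 at 2 Gy by 3.04, *Plk2* by 2.48, *Phlda3* by 2.21 and *Sesn2* by 1.00, and *Plk3* was lower (-0.37). Between 0 and 1 Gy in lung, on the third slide, the change was 1.78 for *Cdkn1a* and 0.86 for *Zmat3*, and between 2 and 8 Gy, on the fourth, it was 0.93 for *Cdkn1a*, 0.79 for *Sesn2*, 0.72 for *Ccng1* and 0.48 for *Phlda3*. On the fifth, from 1 lung at 8 Gy to the 12 Gy lungs, it was 0.15 for *Cdkn1a*, 0.97 for *Ccng1* and 0.37 for *Phlda3*. Of the 9 genes 7, 8, 5, 8 and 5 had a positive change within the 5 slides in order. These counts go by sign alone and include *Gtse1*, which was near background. The share of all probes with a positive change was not computed, so the counts only describe the values. No slide holds both 0 and 12 Gy of a tissue, and the widest range on 1 slide was 2 to 12 Gy in liver and 2 to 8 Gy in lung. Dose and slide are in part tied, so their effects cannot be fully told apart. With the slide as a fixed term of the model, 2 genes kept a called trend in liver (*Plk2*, 2.49, adjusted p = 0.0128, and *Phlda3*, 2.94, adjusted p = 0.0494) and 0 did in lung. That of *Cdkn1a* was then 4.42 in liver (adjusted p = 0.124) and 2.02 in lung (adjusted p = 0.623). *Ccng1* had trends of 1.77 in liver and 1.85 in lung under this term (adjusted p = 0.124 and 0.198), and in lung *Sesn2* had 1.21 (adjusted p = 0.475) and *Phlda3* 1.07 (adjusted p = 0.217), so these values stayed above 1 without passing. Other trends fell under 1 with this term. *Plk3* had 0.10 in liver and 0.34 in lung (adjusted p = 0.954 and 0.947), and *Sesn2* had 0.93 in liver (adjusted p = 0.23). Over all probes 0.138% were called higher in liver and 0.0773% in lung by this model. Without the slide of the 12 Gy lungs, which also held 1 lung at 8 Gy, the doses ran from 0 to 8 Gy only. The lung trend, still scaled to 12 Gy, was then called for 5 genes, among them *Zmat3* (2.69 per 12 Gy, adjusted p = 0.015) and not *Plk3* (0.77, adjusted p = 0.0445). These trends are extended past the doses fitted, and the log2FC of *Zmat3* measured at 12 Gy was 1.085. The share of all probes called in this fit is not given, so the count only describes the values.

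By likeness of pattern over the 18 livers, the genes closest to *Cdkn1a* were *Phlda3* (Pearson r = 0.984), *Eda2r* (0.959) and *Ccng1* (0.957). Over the 18 lungs they were *Eda2r* (0.974), *A930001C03Rik* (0.968) and *Aen* (0.959). Among the 9 genes r with *Cdkn1a* ran in liver from 0.31 for *Gtse1* and 0.50 for *Btg2* to 0.98 for *Phlda3*, and in lung from -0.23 for *Plk2* to 0.90 for *Phlda3*. The genes closest to *Gtse1* were *Tedc2* (0.832), *C230012O17Rik* (0.830) and *Clec16a* (0.785) in liver and *Spatc1l* (0.847), *Ggt5* (0.829) and *Dip2b* (0.826) in lung, over values that were mostly near background. These correlations describe points that share their doses, slides and normalization.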

How the data were processed

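The 36 arrays are 18 livers and 18 lungs with 1 mouse each and 3 mice per dose, grouped by the labels. The authors deposited scanner output of Agilent Feature Extraction 11.5.1.1, in which the intensity of a spot is the median over its pixels beside its local background, with no normalization between arrays. The scanner software's processed intensity and a table of linear intensity values for the series were also deposited by the authors and served as alternatives. The procedure behind that table is not given in the sources used here.

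From these, normexp background correction with an offset of 0 was applied to the median intensities, control spots were dropped, outlier-marked spots were set to missing, the 18 arrays of a tissue (36 for comparisons between tissues) were quantile-normalized, and log2 values were averaged per probe in R 4.3.3 with limma 3.58.1, statmod 1.5.0 and data.table (version 1.17.8). Probes entered a fit if, on 1 array of it or more, at least 0.5 of their spots were well above background. Mean levels of gene lists were taken from the 36 arrays normalized together. Outlier spots are imputed nowhere. Models were fitted with lmFit and eBayes over 6 dose groups or a linear dose slope, given as the log2 change over 12 Gy. All adjusted p values are limma's, Benjamini-Hochberg adjusted over all probes of a comparison, and a call follows the limits in the methods of the study, an absolute log2FC over 1 with an adjusted p under 0.05. The scripts were tested on simulated data. The number of arrays limits the precision.

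Of 56605 probes 34567 were named through RefSeq accessions, and 22038 had no match. The third *Cdkn1a* probe carries an Ensembl transcript identifier, which a supplementary name column pairs with the gene. A gene is given by its brightest probe over 36 arrays. All 9 genes are named, with the 3 largest calls in each direction of each list and the 3 genes most like *Cdkn1a* and *Gtse1*. The genes and lists were chosen with earlier results of these data known. Alternatives were the background offset, other scalings and sources of values, no filter on dim probes, averaged probes, the slide as a fixed term or random block, a joint fit, the mouse number as a block, each mouse left out, and, chosen after seeing the data, the number series as a block and the lungs without the slide of the 12 Gy lungs.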

Additional observations from a re-analysis of the deposited data

Results flagged for a closer look

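*Plk2* stood out because its dose trend differed between the organs by a test of the difference itself. It rose in liver and not in lung, and the trend in lung minus that in liver was -1.66 over 12 Gy on the log2 scale (SE 0.35, adjusted p = 0.00141, limma). Under the 7 alternatives run on this comparison it ran from -1.92 to -1.46, with an adjusted p of at most 0.00183. A slide term was not among them.

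*Phlda3* stood out in the same way. It rose in both organs, and the trend in lung minus that in liver was -1.34 (-1.335 before rounding, SE 0.34, adjusted p = 0.00687, limma). Under the same 7 alternatives, none with a slide term, it ran from -1.72 to -1.16, with an adjusted p of at most 0.00858. The unirradiated level of both genes was higher in lung than in liver.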

How the results depend on the processing

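Each count over the 9 genes was recomputed under 7 to 11 alternatives and without each mouse. Calls of a dose against 0 Gy numbered 17 of 45 in liver (14 to 20 under alternatives, 14 to 18 without single mice) and 17 of 45 in lung (12 to 18, and 15 to 18). Called trends numbered 6 in liver (2 to 7, and 6 to 8) and 5 in lung (0 to 5, and 4 to 5), trend differences between organs 2 (2 to 3, and 2 to 2), and unirradiated differences 5 (5 to 6, and 5 to 6). Neighbouring doses from 1 Gy on gave 0 calls throughout. The counts that moved by more than 1.5 times were those with the slide as a fixed term, 2 called trends in liver and 0 in lung, a term in part tied to dose. Under it the 12 Gy log2FC of *Plk3* (-0.186, adjusted p = 0.941) and of *Btg2* (-0.281, adjusted p = 0.971) in liver turned sign. The slide as a random block gave 16 and 12 dose calls and 5 and 4 trends in liver and lung. No slide term was fitted to the comparisons between organs. For single genes with a call in any setting, 42 of 1120 values at a dose and 25 of 398 trends lost a call, and 15 and 8 gained one. Both totals include comparisons without a call in the main fit, which had none to lose. The 1 Gy call of *Phlda3* in liver was under the fold threshold with an offset of 50 (0.95), and the lung trend of *Plk3* was lost in 7 of 11 alternatives. Scaling to the 75th percentile moved the median of all probes by -0.51 in the comparison of unirradiated organs and by 0.15 in the lung trend. With the mouse number as a replicate block, 3 trend differences were called, with *Cdkn1a* the third (-1.64, adjusted p = 0.000367), and 5 unirradiated differences. Deviations of same-numbered livers and lungs had correlations of -0.0519 to 0.0497, with 0 of 18 over 0.1, and the labels do not say whether they came from 1 mouse, so the numbers were not taken to pair them. With the number series as a replicate block, chosen after seeing the data, liver had 20 dose calls and 7 trends, *Btg2* among them (1.95, adjusted p = 0.000911), and lung 16 and 5. Genes near background, *Gtse1* above all, are limited by signal over background.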

Other observations

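The *Btg2* values of the livers followed the number series of the mice, and *Plk3* did so in part. For *Plk3* the mouse of the series 1 to 6 was the lowest liver at 6 of 6 doses and that of the series 21 to 26 the highest at 4 of 6, with mean deviations of -0.39, 0.04 and 0.35 for the series in order. In lung the deviations were 0.06, -0.15 and 0.09 for *Btg2* and 0.00, 0.01 and -0.02 for *Plk3*. Over all probes, livers of the same series had a median correlation of deviations of -0.00665 and those of different series 0.00348.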
